A study of Drosophila melanogaster with 11 samples.

Results

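The *λ DNA* replacement, in which a fragment of phage λ takes the place of the *nhomie* boundary, was compared library by library with *nhomie forward*, in which *nhomie* was put back in its own orientation. The members were chosen by the genotype in the sample records: 3 *λ DNA* and 2 *nhomie forward* libraries, 5 of the 11 in the series. The others are 3 libraries of *nhomie reverse* and 3 of *homie forward*. All 4 genotypes were made by cassette exchange at the same pair of attP sites, so the exchange sites and the *eve* 7-stripe enhancer are common to them and only the boundary segment differs. Each library came from 50 µL of pooled whole embryos, 12–16 hr old and labelled stage 14, whose chromatin was digested with 60 U of MNase. The methods call the replicates independent and biological, but the sources used here do not say whether a genotype is represented by more than 1 fly line or what same-numbered libraries share.

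Boundary elements are DNA segments that bind architectural proteins and pair with other boundaries, and the chromatin between a pair of them folds into a TAD, within which enhancers and promoters meet more often than they do across its ends. *nhomie* and *homie* lie upstream and downstream of *eve*, a pair-rule gene of the homeodomain family that is known for its striped expression in the early embryo and for its later expression in neurons and muscle precursors. MicroC maps such folding by cutting crosslinked chromatin to nucleosomes, ligating DNA ends that lie close together and sequencing both ends of the ligated fragment. Contacts become rarer with separation along the chromosome, and a smaller number joins different chromosomes. In the fly, arms of one chromosome are joined at the centromere, chromosome 4 is a small and largely heterochromatic chromosome, Y is mostly repetitive and heterochromatic, and mitochondrial DNA (M) lies outside the nucleus.

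The values are the authors' counts of unique pairs per library over the whole genome, divided by separation and by pair of chromosome arms. They hold no contacts of single positions, so the *eve* locus itself was not measured. In RefSeq genes of Release 6, the interval from *eIF3j*, which encodes a translation initiation factor subunit, to *TER94*, which encodes the p97 ATPase, spans 24631 bp, or 0.0974% of arm 2R. The separations within it set the distance classes that bear on the locus. Between their nearest ends, *CG12134* and *eve* are 6538 bp apart, *eIF3j* and *eve* 8421 bp, and *eve* and *TER94* 8363 bp, all in the class of 5.62 to 10 kb. *CG12134* and *TER94*, on either side of the TAD, are 16378 bp apart, in the class of 10 to 17.8 kb, and *eIF3j* and *TER94* are 18261 bp apart, in the class of 17.8 to 31.6 kb. Some pairs reach into the next class. The outermost bases of *eIF3j* and *eve* are 11866 bp apart, and those of *eve* and *TER94* 14240 bp, in the class of 10 to 17.8 kb. Those of *CG12134* and *TER94* are 22416 bp apart, in the class of 17.8 to 31.6 kb. A phage λ sequence is not listed among the counted sequences, so the replacement was not checked by reads. The 2R to which the authors aligned *λ DNA* libraries was 11 bp longer than that for *nhomie forward*.

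The *λ DNA* libraries were shallower, with 32587225, 99952365 and 82359338 contacts at 1 kb or more on one arm (cis) in replicates 1, 2 and 3, against 198257363 and 279171210 in *nhomie forward* replicates 1 and 2. Inward-facing pairs under 1 kb, the orientation an unligated fragment gives, made up 45.1%, 25.9% and 26.3% of all unique contacts in *λ DNA* and 21.0% and 19.8% in *nhomie forward*. *λ DNA* replicates 2 and 3 spread over the 28 pairs of sequences without a difference beyond sampling noise (chi-square test of counts, p = 0.0635), so every mean ± SD takes the average of both as a single value. If they are repeat measurements of one sample, p-values over 3 libraries are too small. They did differ slightly over distance classes (chi-square test, p = 9.00e-07, with 0.0492% of contacts in other classes). So they did in how cis contacts were spread over the sequences (chi-square test, p = 1.31e-12, with 0.0194% of contacts on other sequences). *λ DNA* replicate 1 stood apart from them, with 3.17% of its contacts in other distance classes than in replicate 2. The *nhomie forward* libraries differed from each other in 0.109% of contacts over distance classes, and also over the 28 pairs of sequences (chi-square test, p = 1.12e-24). They were kept as 2 samples, although by distance they were far more alike than *λ DNA* replicates 1 and 2. If they too are repeat measurements of one sample, their SDs understate the spread between samples. At these depths a distance class has, for its share, a 95% Wilson confidence interval of at most 0.0172 points on either side, which covers counting error only, so the spread between libraries sets the error.

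Contacts at middle separations, from 10 to 562 kb, made up less of the cis contacts separated by at least 1 kb in every *λ DNA* library than in either *nhomie forward* library. Contacts at 3.16 Mb and beyond made up more. Of the 19 distance classes, 7 were lower in all *λ DNA* libraries (36.8% of classes) and 5 were higher in all (26.3%), while the libraries overlapped in the others. The shares of one library add up to 100, so these classes do not move independently of each other: the mean log2 ratio was above 0 in 10 classes, and in 5 when each library was scaled to its median class. None passed the test for a difference between the genotypes. Over the 11 libraries, limma on log2 shares called 0 classes higher and 0 lower (0.0% each), with a smallest adjusted p of 0.212. At an unadjusted p under 0.05 there were 3. With only the 5 compared libraries limma also called 0, but closer to the threshold. The smallest adjusted p was then 0.0560, and 9 classes had an unadjusted p under 0.05. In the 12 classes without overlap all *λ DNA* libraries lie on one side by definition. Compared with replicates 2 and 3, *λ DNA* replicate 1 was there mostly closer to *nhomie forward* at middle separations and farther from it at long ones.

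**Figure D1:**
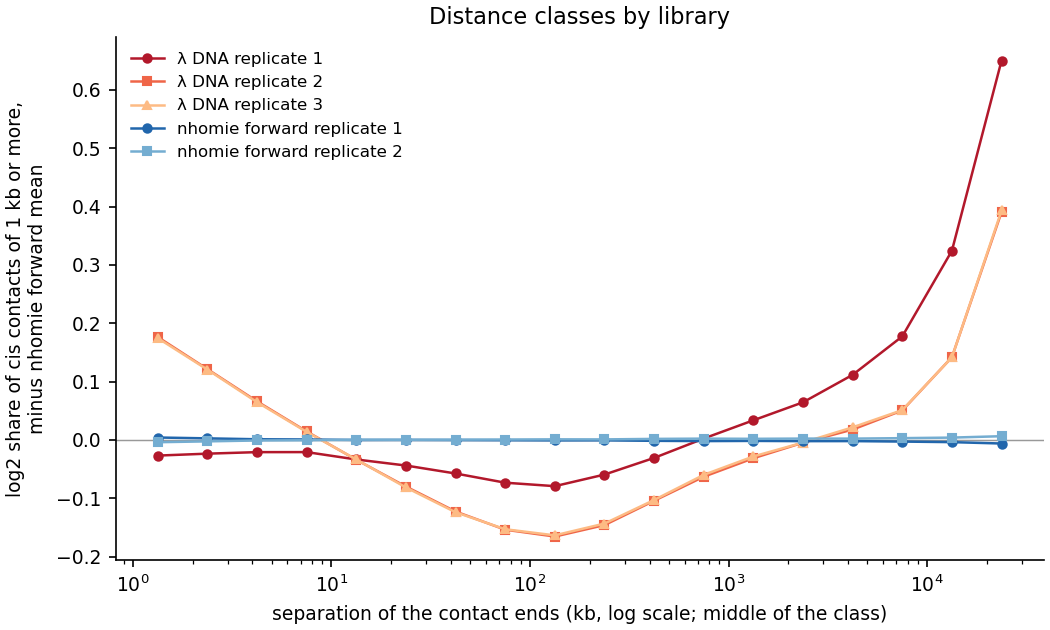
Log2 share of cis contacts of 1 kb or more in each distance class (y axis), minus the mean of the 2 *nhomie forward* libraries, by separation in kb (x axis, log scale), with 1 line for each *λ DNA* and *nhomie forward* library; the class beyond 31.6 Mb is left out for its low counts. The *nhomie forward* lines stay near 0, and the *λ DNA* lines are lowest at 100 to 178 kb and highest at 17.8 to 31.6 Mb.

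The class with the lowest ratio was the same in each *λ DNA* library. At separations of 100 to 178 kb, far longer than the interval around *eve*, the share was 4.94%, 4.66% and 4.66% in *λ DNA* replicates 1, 2 and 3, against 5.22% and 5.23% in *nhomie forward*. All 3 *λ DNA* values lay below both *nhomie forward* values. The mean was 4.80% ± 0.201 in *λ DNA* and 5.22% ± 0.00462 in *nhomie forward* (SD, n = 2 each), a log2 ratio of -0.14 that did not pass the test (limma, SE 0.0540, adjusted p = 0.212). Replicate 1 alone was lower by less, with a log2 ratio of -0.08 to the *nhomie forward* mean, than replicates 2 and 3, with -0.17 and -0.16.

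The class that holds the gap between *CG12134* and *TER94*, 10 to 17.8 kb, gave 8.02% in each of the *λ DNA* libraries, against 8.21% in both *nhomie forward* libraries. It was the class in which *λ DNA* replicate 1 came closest to replicates 2 and 3. The mean was 8.02% ± 0.000919 in *λ DNA* and 8.21% ± 0.00229 in *nhomie forward* (SD, n = 2 each), a log2 ratio of -0.03 (limma, SE 0.0823, adjusted p = 0.846). With only the 5 libraries that ratio had an SE of 0.00894 (limma, adjusted p = 0.0560). The difference of -0.190 points was the most extreme of the 10 assignments of 3 and 2 libraries (exact permutation test, p = 0.100, the smallest possible; adjusted over 8 measures, p = 0.160). The share is genome-wide, and the whole interval around *eve* is a small part of one arm. The class above it, 17.8 to 31.6 kb, which holds the gap between *eIF3j* and *TER94*, gave 7.49%, 7.30% and 7.29% in *λ DNA* and 7.72% in both *nhomie forward* libraries (limma log2 ratio -0.07, adjusted p = 0.750). The class below it, 5.62 to 10 kb, overlapped between the genotypes, with 8.46%, 8.67% and 8.66% in *λ DNA* and 8.59% and 8.58% in *nhomie forward*.

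At the shortest separations, where nucleosomes of neighbouring genes and of one gene meet, *λ DNA* libraries fell on both sides of *nhomie forward*. The class of 1 to 1.78 kb held 9.43% in *λ DNA* replicate 1 but 10.9% and 10.8% in replicates 2 and 3, against 9.64% and 9.59% in *nhomie forward* (limma log2 ratio 0.11, SE 0.0753, adjusted p = 0.506). The excess of inward over outward pairs in this class was 5.27%, 5.80% and 5.88% of its contacts in *λ DNA* and 5.80% and 5.79% in *nhomie forward*, so the genotypes overlapped in it. From 10 kb to 31.6 Mb this excess was under 1% in every class in all 5 libraries.

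At the longest separations the order turned. The class of 17.8 to 31.6 Mb, which spans most of an arm, held 0.709%, 0.592% and 0.594% of the cis contacts at 1 kb or more in *λ DNA* and 0.450% and 0.454% in *nhomie forward*. Each *λ DNA* library was above both *nhomie forward* libraries, replicate 1 the most, and the log2 ratio was 0.48 (limma, SE 0.359, adjusted p = 0.515). Out of all unique contacts the genotypes overlapped in this class. It held 231146 of 87012109 in *λ DNA* replicate 1, a share between those of *nhomie forward*, with 892065 of 340576138 and 1267101 of 472473246. The class beyond it, open only to the longest arm, 3R, held 32, 60 and 56 contacts in *λ DNA* and 51 and 72 in *nhomie forward*.

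By band, gene-scale contacts of 1–10 kb were 36.0%, 39.2% and 39.1% of cis contacts at 1 kb or more in *λ DNA* and 36.6% and 36.5% in *nhomie forward*. The genotypes overlapped here (exact permutation test, p = 0.400), and so they did at 100 kb or more, with 35.6%, 33.3% and 33.3% in *λ DNA* and 34.0% and 34.1% in *nhomie forward* (exact permutation test, p = 1). TAD-scale contacts of 10–100 kb were 28.4%, 27.6% and 27.6% in *λ DNA*, all below the 29.4% of each *nhomie forward* library. The mean was 28.0% ± 0.582 in *λ DNA* and 29.4% ± 0.00972 in *nhomie forward* (SD, n = 2 each), and the difference over the 5 libraries was -1.56 points (exact permutation test, p = 0.100, adjusted p = 0.160). With 3 libraries against 2 no exact test can go below 0.100, and with *λ DNA* replicates 2 and 3 as 1 sample it cannot go below 0.333.

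**Figure D2:**
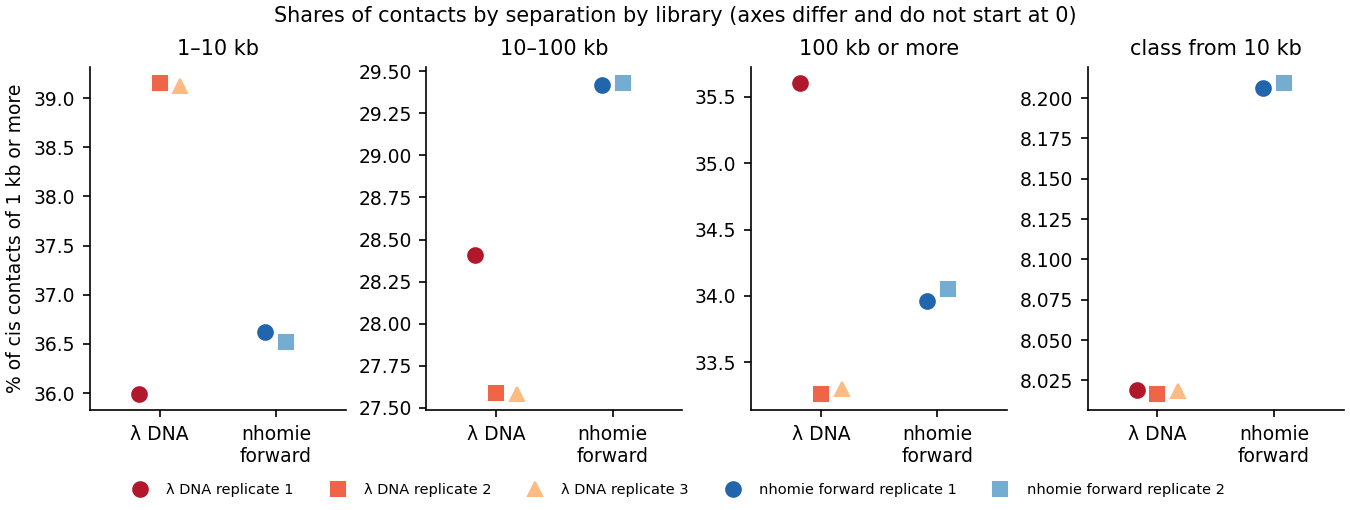
Percent of cis contacts of 1 kb or more (y axis) at 1–10 kb, 10–100 kb, 100 kb or more and in the class from 10 kb, with 1 point for each *λ DNA* library on the left and each *nhomie forward* library on the right of a panel. *λ DNA* lies below *nhomie forward* in the panels of 10–100 kb and of the class from 10 kb, and on both sides of it in the others.

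Contacts between different arms (trans) were more frequent in *λ DNA* relative to the informative cis contacts. There were 26.4, 21.5 and 21.5 trans contacts per 100 cis contacts of 1 kb or more in *λ DNA* replicates 1, 2 and 3, against 14.6 and 14.8 in *nhomie forward*. The groups did not overlap, with 23.9 ± 3.46 in *λ DNA* and 14.7 ± 0.138 in *nhomie forward* (SD, n = 2 each; exact permutation test, p = 0.100, adjusted p = 0.160). Out of all unique contacts, the trans share was also higher in every *λ DNA* library, but replicate 1 was then the lowest of them. It had 8595497 trans contacts among 87012109, against 21456080 among 197892647 in *λ DNA* replicate 2. *nhomie forward* replicate 2 had 41233055 among 472473246. Trans contacts include random ligations between fragments that were not close in the nucleus, and the share of inward pairs under 1 kb given above was also higher in every *λ DNA* library. The part of either in the differences by distance was not tested. In a separate recomputation, the density of trans contacts between large arms of different chromosomes, taken per possible pair of positions, was subtracted from each distance class.

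With the trans density subtracted, which removed 6.12%, 4.88% and 4.89% of the cis contacts at 1 kb or more in *λ DNA* and 3.23% and 3.28% in *nhomie forward*, the class of 10 to 17.8 kb no longer separated the genotypes. Its share was then 8.54%, 8.42% and 8.43% in *λ DNA* and 8.48% and 8.49% in *nhomie forward*. The class of 17.8 to 31.6 kb still did, with 7.97%, 7.67% and 7.66% in *λ DNA* and 7.97% and 7.98% in *nhomie forward*, although *λ DNA* replicate 1 was then lower by less than the difference between the *nhomie forward* libraries. So did the class of 100 to 178 kb, with 5.23%, 4.87% and 4.87% in *λ DNA* and 5.38% in both *nhomie forward* libraries. Of the 19 classes, 4 were then higher in all *λ DNA* libraries, 10 were lower in all and 5 overlapped. The 10 include the class beyond 31.6 Mb, where every share was negative. The 4 were those under 10 kb, higher by log2 ratios of 0.0164 to 0.0222 in *λ DNA* replicate 1 and of 0.0382 to 0.201 in replicates 2 and 3. The class of 17.8 to 31.6 Mb turned, with -0.0331%, 0.00218% and 0.00225% in *λ DNA* and 0.0609% and 0.0594% in *nhomie forward*. From 3.16 to 10 Mb the genotypes then overlapped, with *λ DNA* replicate 1 still above both *nhomie forward* libraries and replicates 2 and 3 below them. The subtraction was chosen after the values were seen. The negative share at 17.8 to 31.6 Mb shows that it removed more contacts than that class held in *λ DNA* replicate 1.

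Set against the trans density directly, cis contacts were sparser in *λ DNA* at every separation up to 31.6 Mb. In the class of 10 to 17.8 kb the cis density was 2193, 2749 and 2745 times the trans density in *λ DNA*, against 4249 and 4193 times in *nhomie forward*. At 100 to 178 kb the ratio was 136, 161 and 161 in *λ DNA* and 272 and 269 in *nhomie forward*. It was lower in all *λ DNA* libraries in 18 of the 19 classes, with the exception of the class beyond 31.6 Mb and its few contacts. At 17.8 to 31.6 Mb cis pairs were about as dense as trans pairs, at 0.958, 1.004 and 1.004 in *λ DNA* and 1.15 and 1.14 in *nhomie forward*. The ratio changes with the frequency of trans contacts as well as with that of cis contacts, and these cannot be told apart in it.

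**Figure D3:**
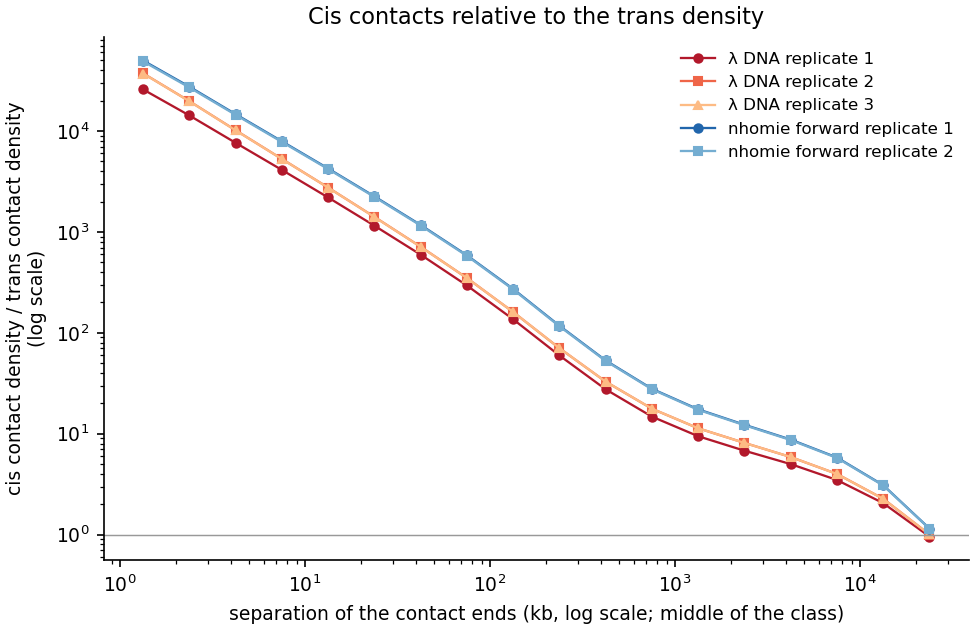
Density of cis contacts per possible pair of positions, divided by that of trans contacts between large arms of different chromosomes (y axis, log scale), by separation in kb (x axis, log scale), with 1 line for each *λ DNA* and *nhomie forward* library; the class beyond 31.6 Mb is left out for its low counts. The *λ DNA* lines run below the *nhomie forward* lines in each class plotted, and all come near 1 at 17.8 to 31.6 Mb.

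Within the trans contacts, those between the 2 arms of one chromosome took a smaller share in *λ DNA*. Contacts of 2L with 2R, the arm that carries *eve*, were 10.5%, 10.9% and 10.9% of trans contacts in *λ DNA* and 12.0% and 11.9% in *nhomie forward*. Contacts of 3L with 3R were 14.7%, 14.8% and 14.8% in *λ DNA* and 15.8% in both *nhomie forward* libraries. The 8 pairs of large arms of different chromosomes were each higher in all *λ DNA* libraries, by log2 ratios of 0.01 to 0.07 for single libraries. In all, 10 of the 28 trans pairs were higher in every *λ DNA* library (35.7%) and 6 were lower in every one (21.4%). Over the 28 pairs limma called 0 higher (0.0%) and 1 lower (3.57%). In this table the libraries of one replicate number deviated together, and when that number entered the fit as a replicate block, 2 pairs passed as higher (7.14%) and 4 as lower (14.3%), with 2L/2R and 3L/3R among them (log2 ratios of -0.17 and -0.11, limma adjusted p = 0.0355 for each). Without the block neither pair passed (limma adjusted p = 0.198 for 2L/2R and 0.169 for 3L/3R). Nor did they, again without it, when replicates 2 and 3 of each genotype with 3 libraries were summed (limma adjusted p = 0.435 for each). With only the 5 libraries and no block both passed (limma adjusted p = 0.0347 for each). Shares of trans contacts depend on what else is counted: when each library was scaled to its median pair, which shifts all log2 ratios up by 0.16, 2L/2R and 3L/3R came out at 0.02 and 0.07, and 25 pairs had a ratio above 0 in place of 19.

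Arm weights fitted to the 8 pairs of different chromosomes do not depend on that scaling. Relative to the product of their weights, contacts of 2L with 2R were 1.25, 1.31 and 1.31 times the expected number in *λ DNA*, against 1.49 and 1.48 times in *nhomie forward*. For 3L with 3R it was 1.18, 1.23 and 1.23 times in *λ DNA* and 1.34 times in both *nhomie forward* libraries. The groups did not overlap for either pair. The means were 1.28 ± 0.0407 in *λ DNA* and 1.48 ± 0.00317 in *nhomie forward* for 2L with 2R, and 1.21 ± 0.0298 in *λ DNA* and 1.34 ± 0.00161 in *nhomie forward* for 3L with 3R (SD, n = 2 each; exact permutation test over the 5 libraries, p = 0.100 and adjusted p = 0.160 for both). The lower ratio was therefore not particular to the chromosome that carries the replacement, although the difference between the 2 chromosomes was not tested. The 8 pairs used for the fit had ratios of 0.987 to 1.02 in the 5 libraries.

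Among contacts of chromosome 4 and Y, both rich in heterochromatin, those of 4 with Y were the trans pair with the lowest ratio and the 1 that passed the test over the 11 libraries without the block. They numbered 1261, 3583 and 3049 in *λ DNA* and 8167 and 11811 in *nhomie forward*, which is 0.0147%, 0.0167% and 0.0172% of trans contacts against 0.0283% and 0.0286%. Every *λ DNA* value was below every *nhomie forward* value, and the pair was lower by 0.82 on the log2 scale (limma log2 ratio -0.82, SE 0.168, adjusted p = 0.0354). With the replicate block the log2 ratio was -0.88 (limma, adjusted p = 0.00300). The pair also passed with only the 5 libraries, with median scaling and without *λ DNA* replicate 1 (limma, adjusted p = 0.0242, 0.00234 and 0.0401). The call was lost without *λ DNA* replicate 2 or 3 (adjusted p = 0.0984 and 0.0782), without *nhomie forward* replicate 1 or 2 (adjusted p = 0.234 and 0.262) and when replicates 2 and 3 were summed (adjusted p = 0.218).

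Next lowest were X with 4, at 0.358%, 0.412% and 0.413% of trans contacts in *λ DNA* and 0.488% and 0.490% in *nhomie forward* (limma log2 ratio -0.31, adjusted p = 0.136; with the replicate block -0.35, adjusted p = 0.0169; with replicates 2 and 3 summed, adjusted p = 0.435), and X with Y, at 0.148%, 0.134% and 0.134% in *λ DNA* and 0.163% and 0.161% in *nhomie forward* (limma log2 ratio -0.22, adjusted p = 0.0985). Divided by arm weights and by the mean over the 5 large arms, contacts of 4 with X were 1.05, 1.04 and 1.04 in *λ DNA* and 1.18 and 1.17 in *nhomie forward*. Contacts of Y with X were 1.29, 1.26 and 1.26 in *λ DNA* and 1.46 and 1.43 in *nhomie forward*. Over all 5 arms, these relative contacts of 4 ran between 0.953 and 1.06 in *λ DNA* and between 0.890 and 1.18 in *nhomie forward*, and those of Y between 0.859 and 1.29 in *λ DNA* and between 0.778 and 1.46 in *nhomie forward*. Contacts of M, which has no place in the nucleus, were nearly even over the arms, between 0.966 and 1.04 in *λ DNA* and between 0.958 and 1.04 in *nhomie forward*.

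**Figure D4:**
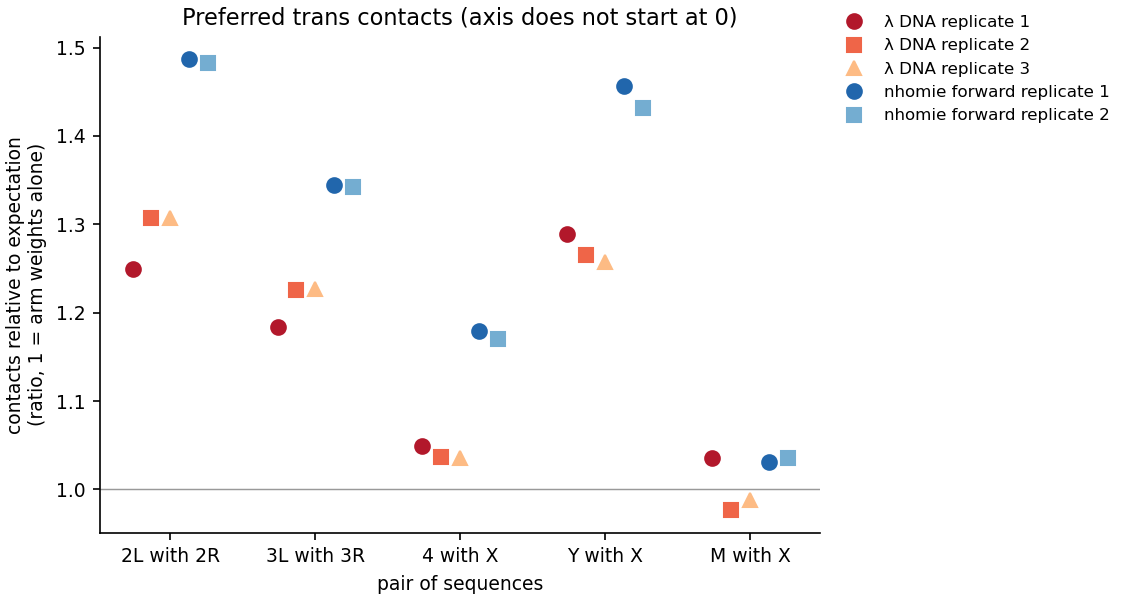
Contacts of 2L with 2R, 3L with 3R, and of 4, Y and M with X relative to the expectation from arm weights (y axis, ratio; for 4, Y and M also relative to the mean over the 5 large arms), with 1 point for each *λ DNA* library and each *nhomie forward* library. *λ DNA* lies nearer to 1 than *nhomie forward* for the first 4 pairs, and the libraries overlap for M with X.

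The share of trans contacts that M took split the *λ DNA* libraries. It was 0.545% in *λ DNA* replicate 1 but 1.04% and 1.03% in replicates 2 and 3, against 0.629% and 0.642% in *nhomie forward*. All 7 pairs with M overlapped between the genotypes for this reason. The 3 pairs with the highest ratios were among them, 3L/M, Y/M and 4/M with limma log2 ratios of 0.43, 0.43 and 0.41 (adjusted p = 0.398, 0.398 and 0.559). Without *λ DNA* replicate 1 limma called 8 trans pairs, 3L/M (log2 ratio 0.75, adjusted p = 0.0401) and Y/M (0.81, adjusted p = 0.0401) among them.

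The arm with the replacement, 2R, was also followed with its other partners. Its limma log2 ratios over the 11 libraries, none of which passed the test, were 0.05 with 3L, 0.04 with 3R, 0.03 with X, -0.15 with 4 (0.02 with median scaling), 0.01 with Y and 0.40 with M. Without *λ DNA* replicate 1 they were -0.07 with 4 and 0.70 with M, and 2R/M then passed (limma adjusted p = 0.0401). Its contacts with 4 were 0.431%, 0.505% and 0.504% of trans contacts in *λ DNA*, all below the 0.527% and 0.533% of *nhomie forward*, whereas those with Y overlapped, at 0.142%, 0.134% and 0.135% in *λ DNA* and 0.135% and 0.137% in *nhomie forward*.

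**Figure D5:**
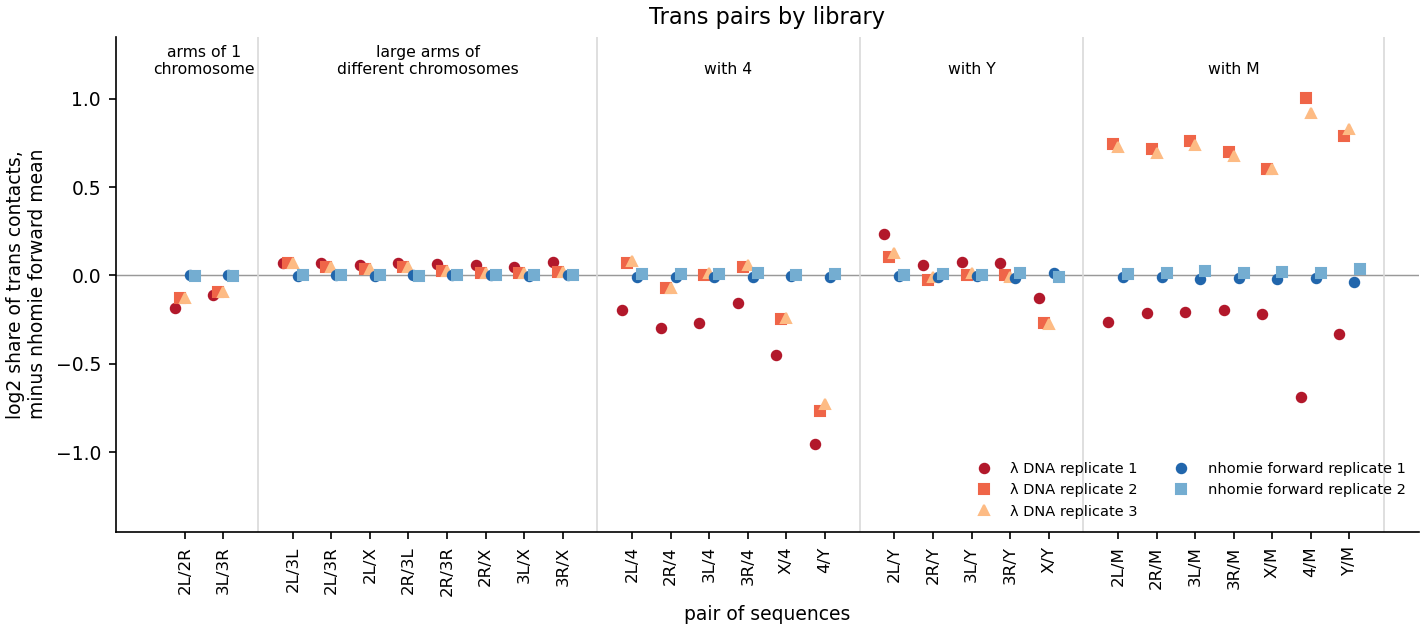
Log2 share of trans contacts for each of the 28 pairs of sequences (x axis), minus the mean of the 2 *nhomie forward* libraries (y axis), with 1 point for each *λ DNA* and *nhomie forward* library. Pairs of arms of one chromosome, X/4 and 4/Y lie below 0 in all *λ DNA* libraries, and pairs with M lie on opposite sides in *λ DNA* replicate 1 and in replicates 2 and 3.

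Cis contacts were spread over the chromosomes almost alike in the 2 genotypes. 2R held 19.8% of the cis contacts on the 5 large arms in each of the 5 libraries, and the difference of -0.000742 points was below the SD of 0.0277 points between the *nhomie forward* libraries (exact permutation test, p = 0.900). These counts include pairs under 1 kb. Of the 8 sequences, limma called 0 higher and 0 lower (0.0% each; 1 at an unadjusted p under 0.05). The libraries did not overlap for 3R, which was lower in *λ DNA* (12.5% of sequences), nor for Y and M, which were higher (25.0%). 3R held 26.1%, 26.0% and 26.0% of cis contacts in *λ DNA* and 26.4% in both *nhomie forward* libraries (limma log2 ratio -0.02, adjusted p = 0.0773). Y with itself held 0.0540%, 0.0448% and 0.0448% in *λ DNA* and 0.0424% and 0.0425% in *nhomie forward*, and M with itself 0.0213%, 0.0127% and 0.0136% in *λ DNA* and 0.0126% and 0.0125% in *nhomie forward*. For the rest, the log2 ratios were 0.00404 for 2L, 0.000364 for 3L, 0.02 for X and 0.12 for 4, and chromosome 4 split the *λ DNA* libraries, with 0.490% in replicate 1 but 0.688% and 0.689% in replicates 2 and 3, against 0.556% and 0.574% in *nhomie forward*.

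Against the rest of the series, *λ DNA* did not stand out. All 8 measures of the *λ DNA* libraries lay inside the range of the other 8 libraries. The share of contacts at 10–100 kb, for example, was 27.6% to 28.4% in *λ DNA* and 23.4% to 29.4% in the other libraries, and the ratio of 2L with 2R was 1.25 to 1.31 in *λ DNA* and 1.13 to 1.49 in the others. In the exact permutation test of 3 against 8 libraries 0 of the 8 measures passed, with unadjusted p between 0.358 and 0.897, and 0 passed when labels were exchanged only within replicate numbers (exact p between 0.458 and 0.917). It was *nhomie forward* that lay at the edge of the 11 libraries. It had the highest share at 10–100 kb and the fewest trans contacts per 100 cis contacts of 1 kb or more. It also had the highest ratios of 2L with 2R and of 3L with 3R. The other replacements lay on the same side of *nhomie forward* in these 4 measures: *nhomie reverse* had 56.1, 23.7 and 23.7 trans contacts per 100 cis contacts of 1 kb or more, and *homie forward* 29.6, 16.2 and 16.3. With pairs under 1 kb counted as cis, *homie forward* replicates 2 and 3 had fewer trans contacts per cis contact than *nhomie forward*. *homie forward* replicate 2 then had 9187200 trans and 116895935 cis contacts, against 28895915 and 311680223 in *nhomie forward* replicate 1. *nhomie forward* was also the most deeply sequenced genotype, and depth and genotype cannot be told apart here.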

How the data were processed

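MicroC pairs of 11 libraries were used as the authors deposited them, in a Pairtools summary per library with 222 statistics of other kinds mixed in one column: raw counts of pairs, fractions and lengths. Per the paper's methods, reads were aligned with BWA-MEM to a genome of each genotype edited from Release 6 (dm6), and half-mapped pairs, pairs with a mapping quality under 3 and duplicates were removed, without normalization; tool versions are not given in the sources used here. Shares were computed from the counts, after a check that they add up. Differences of 8 measures were tested with a two-sided exact permutation test over libraries, with Benjamini-Hochberg adjustment over the 8. Distance classes (19), trans pairs (28) and cis sequences (8) with at least 10 counts in every library were tested with limma 3.58.1 in R 4.3.3 on log2 shares of the table's total over the 11 libraries, adjusted within each table at 0.05. Count models had been planned; the class values are whole counts, but because the deposited column mixes them with fractions and lengths it was handled as a column of other kinds, and limma on shares was used in place of the count models and their scalings, which were not run. Expected contacts of 2 arms are the product of weights fitted by a Poisson model to the 8 pairs of the 5 large arms on different chromosomes. The tests were tested on simulated data. Classes named in the text are those at 1 and 10 kb, the highest and lowest ratios among classes with 10000 contacts or more, all cis sequences, all pairs of 2R, both pairs of arms of 1 chromosome and the 3 highest and lowest trans pairs; others named were chosen after their values were seen. The genotypes compared and these lists were chosen with earlier results of these data known.

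The replicate numbers were checked for pairing, as the correlation of same-numbered libraries' deviations from their genotype means over classes. The deviations of one genotype sum to 0, so the 15 correlations of a table are not independent of each other. Over trans pairs all 15 correlations between genotypes were above 0.1 (0.188 to 0.952) and over cis sequences too (0.406 to 0.970), so blocked values are given for these. Over distance classes only 9 of 15 were, all of them between *λ DNA*, *nhomie reverse* and *homie forward* (0.778 to 0.975). The others were those of *nhomie forward*, which ran against these genotypes (-0.543 to -0.737). Its 2 libraries hardly differed, with 0.109% of contacts in other distance classes. Analyses used Python 3.11.15, numpy 2.4.6, pandas 2.3.3, scipy 1.17.1 and matplotlib 3.10.9.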

Additional observations from a re-analysis of the deposited data

How the results depend on the processing

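Low counts limit the class beyond 31.6 Mb and the trans pairs Y/M and 4/M, with 119 and 364 contacts in *λ DNA* replicate 1. For the 8 measures the number of libraries sets the limit, and no exact test of 3 against 2 could pass. How far depth bears on the other results was not tested. Over 38 results, 338 of 387 alternative values were classed as unchanged. For the 8 measures this means the same direction, and for counts of calls a similar count. For single classes it means the same direction and side of the threshold. The tally does not gauge robustness, because some alternatives could not differ. Every class passed the count filter, so removing it changed nothing, and fitting only the 5 libraries leaves a log2 ratio as it was. As a share of all unique contacts, the difference at 1–10 kb was -3.81 points and that at 100 kb or more -4.32, in place of 1.52 and 0.0491, that at 10–100 kb was -4.45 and that of the class from 10 kb -1.12, in place of -1.56 and -0.190; with the trans density subtracted, the difference at 100 kb or more was -1.40, that at 10–100 kb -1.01 (exact permutation test, p = 0.200) and that of the class from 10 kb -0.0187 (exact permutation test, p = 0.900). The 2R share of cis contacts differed by 0.00315 points with the replicate block and by 0.00391 with *λ DNA* replicates 2 and 3 as 1 sample. With single replicates left out, the differences ran from -0.0203 to 0.0188 points for the 2R share, from -0.727 to 0.448 for 100 kb or more, from 0.982 to 2.57 for 1–10 kb, from -1.84 to -1.43 for 10–100 kb and from -0.192 to -0.188 for the class from 10 kb. They ran from 6.81 to 9.27 for trans contacts per 100 cis contacts, from -0.206 to -0.177 for 2L with 2R and from -0.139 to -0.117 for 3L with 3R. limma called 1 trans pair, and 6 with the replicate block, 4 with only the 5 libraries, 4 with median scaling, 0 with replicates 2 and 3 summed, and 0 to 8 with single replicates left out; for distance classes and cis sequences it called 0 in each of these. Cis log2 ratios near 0 turned: for 2L to -0.000626 with the replicate block, -0.00770 with median scaling and -0.00169 with replicates 2 and 3 summed, and for 3L to -0.000630, -0.0114 and -0.00116. With median scaling 2L/2R gave 0.0174, 2R/4 0.0174 and 3L/3R 0.0657. With single replicates left out, the log2 ratios ran from -0.00179 to 0.0155 for cis 2L, from -0.00257 to 0.000542 for cis 2R, from -0.00120 to 0.00342 for cis 3L and from -0.0174 to 0.0245 for 2R/Y. For the distance classes, in which *nhomie forward* alone ran against the other genotypes by replicate number, the replicate block gave a smallest adjusted p of 0.0514 (limma). The causes were not tested. DESeq2, edgeR and TMM were not run; median scaling, chosen after seeing the data, took the place of TMM.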
